A study of Mus musculus with 11 samples.

Results

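The genes described here are 10 regulators of gliogenesis: the 4 nuclear factor I genes Nfia, Nfib, Nfic and Nfix, the zinc-finger factor gene Zbtb20, the cytokine receptor genes Lifr, Osmr and Il6st, the transcription factor gene Stat3 and its feedback inhibitor gene Socs3. They were chosen by symbol. The 10 symbols matched 11 of the 37991 gene rows of the deposited table, because Zbtb20 has a second row (mm9 chr16:43620990-43624068) that was listed at 0 in all 11 libraries and lies inside the span of the first. The other 10 rows passed the filter of at least 1 CPM (read counts scaled to a common library total) in at least 2 libraries, as did 13342 genes in all.

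RNA was measured in cultures of primary neural stem cells from the frontal cortex of C57BL/6J mouse embryos at E14.5. The NSC group (3 libraries) was collected at day 0 from proliferation medium. The Astrocyte group (3 libraries) was collected at day 4 in DMEM containing 1% fetal bovine serum and N-2 at 1%. The Neuron group (3 libraries) was collected at day 4 in Neurobasal with B-27 supplement (2%), and the Oligodendrocyte group (2 libraries) at day 4 in that same medium with T3, a thyroid hormone, at 30 ng/mL. All day 4 media held GlutaMAX at 2 mM. The day 4 groups are named for their medium, and the cultures were not sorted. No day 4 culture in proliferation medium was analysed here, so time in culture and the change of medium cannot be told apart in any comparison with NSC. Astrocyte and Neuron media differ in base, supplement and serum together, whereas Oligodendrocyte and Neuron media differ by the added T3. Below, with and without T3 refer to this addition alone. In whole cultures, a lower share of cells with a transcript and less of it per cell cannot be told apart either.

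Nuclear factor I proteins bind a palindromic DNA site as dimers, and Nfia and Nfib are known for the onset of gliogenesis in the embryonic spinal cord and cortex. Zbtb20 is known to promote astrocyte formation in the cortex. Cytokines of the interleukin-6 family, such as LIF, CNTF, cardiotrophin-1 and oncostatin M, signal through gp130, the product of Il6st, paired with the LIF receptor (Lifr) or the oncostatin M receptor (Osmr). Janus kinases bound to these receptors phosphorylate STAT3, which drives astrocyte genes such as Gfap and also Socs3, whose product blocks the same receptors.

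Depth was 49.3 to 66.2 M (mega) reads per library as estimated from the steps between low CPM values, so 1 read was worth 0.0151 to 0.0203 CPM. The series' design text calls the libraries biological replicates, and nothing in the labels says that they came from separate embryos or flasks, so the tests measure the spread between these libraries. The labels were checked against marker genes. The summed level of 8 neural progenitor markers was highest in NSC (5867 to 6218 CPM), although Sox2, Pax6 and Prom1 were called higher than in NSC in both Astrocyte and Neuron, as were Vim in Astrocyte, Hes5 in Neuron and Prom1 in Oligodendrocyte. The sum of 10 astrocyte markers was 14270 to 15757 CPM in Astrocyte, 9072 to 9907 in Neuron and 3528.5 to 3975 in Oligodendrocyte against 1678 to 1753 in NSC. The order of Astrocyte and Neuron in that sum came from Gfap, Gja1 and Aqp4: of the 10 markers 3 were called higher and 6 lower in Astrocyte than in Neuron, Slc1a2 among the latter (269.6 against 869.6 CPM). Neuronal markers, with Dcx as the largest at day 4, summed to 165 to 248 CPM in Neuron and 166 to 220.5 CPM in Astrocyte. Of their 6 genes that passed the filter, Syt1 (11.1 CPM in Neuron against 6.32, 3.51 and 3.98 in NSC, Astrocyte and Oligodendrocyte) and Rbfox3 (2.34 against 0.683, 1.09 and 1.33) were called higher in Neuron than in each other group. Gap43 was called lower in Neuron (21.6 CPM) than in NSC (71.0) and Oligodendrocyte (26.4), and higher than in Astrocyte (13.4). Tubb3 was called lower in Neuron (28.4 CPM) than in Astrocyte (41.2) and Oligodendrocyte (44.8). Dcx and Snap25 were not called between Astrocyte and Neuron. Dcx was called higher in Neuron (147.7 CPM) than in Oligodendrocyte (86.6), and Snap25 was not called between these groups. Dcx, Tubb3 and Snap25 were each called higher in Neuron than in NSC. The 9 oligodendrocyte markers that passed summed to 2266 to 2393 CPM in Neuron and 2113 to 2382 CPM in Oligodendrocyte. Group names below mean the medium. Over all tested genes the middle log2 fold change was 0.153 in Astrocyte against NSC, 0.188 in Oligodendrocyte against NSC, 0.153 in Oligodendrocyte against Neuron and 0.105 in Astrocyte against Neuron. Median-of-ratios scaling moved these to 0.013, 0.015, 0.016 and 0.006, and quantile normalization to −0.039, −0.041, −0.02 and −0.02, so small changes are given with these shifts in view.

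All 10 genes differed between NSC and Astrocyte, 8 of them higher in Astrocyte and 2 (Nfib and Lifr) lower. In Neuron 5 were higher than in NSC (Nfix, Zbtb20, Socs3, Il6st and Osmr), Nfib and Lifr were lower, and Nfia, Nfic and Stat3 were not called. In Oligodendrocyte 6 were higher (Nfic, Nfix, Zbtb20, Socs3, Il6st and Osmr), Nfia, Nfib and Lifr were lower, and Stat3 was not called. A gene was called at a Benjamini-Hochberg adjusted p under 0.05 from limma fitted to log2(CPM + 1) over all tested genes. Most genes differ in these data, so the counts have to be read against that background. Of all tested genes, 83.6% were called in Astrocyte against NSC (48.0% higher and 35.6% lower), 83.1% in Neuron against NSC (43.5% and 39.6%) and 80.2% in Oligodendrocyte against NSC (48.1% and 32.2%). The shares of the 10 genes called, 10, 7 and 9, lie near those levels. Called changes of at least 2-fold numbered 6, 5 and 5 of the 10, where the background was 33.7%, 31.8% and 32.0%. The libraries of the 2 groups did not overlap for 10, 7 and 10 of them, where the background was 86.2%, 83.2% and 89.3%.

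Between the day 4 media all 10 genes differed in Astrocyte against Neuron, 9 higher and Lifr lower, with a background of 62.2% (40.3% higher and 22.0% lower). Under median-of-ratios scaling the share of higher genes among all calls in that comparison fell from 64.7% to 51.9%, and under quantile normalization to 48.5%. The addition of T3, in Oligodendrocyte against Neuron, came with 3 genes higher (Nfic, Nfix and Zbtb20) and 4 lower (Nfia, Nfib, Socs3 and Osmr), with a background of 67.5% (43.9% higher and 23.6% lower). There the share of higher genes among all calls was 65.1%, and 51.5% and 48.0% under the same alternatives. In Oligodendrocyte against Astrocyte 2 were higher (Nfic and Lifr) and 6 lower (Nfia, Nfib, Stat3, Socs3, Il6st and Osmr), with a background of 52.2% (28.7% higher and 23.5% lower). In these 3 comparisons, in the same order, 1, 3 and 3 genes changed by at least 2-fold (background 9.34%, 12.5% and 7.94%), and 10, 10 and 8 did not overlap (63.0%, 75.7% and 71.7%). The median log2 fold change of the 10 genes was 0.92 in Astrocyte against NSC, 0.22 in Neuron and 0.88 in Oligodendrocyte, beside 0.15, 0.06 and 0.19 over all tested genes. The comparisons with NSC share the NSC libraries.

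**Figure D1:**
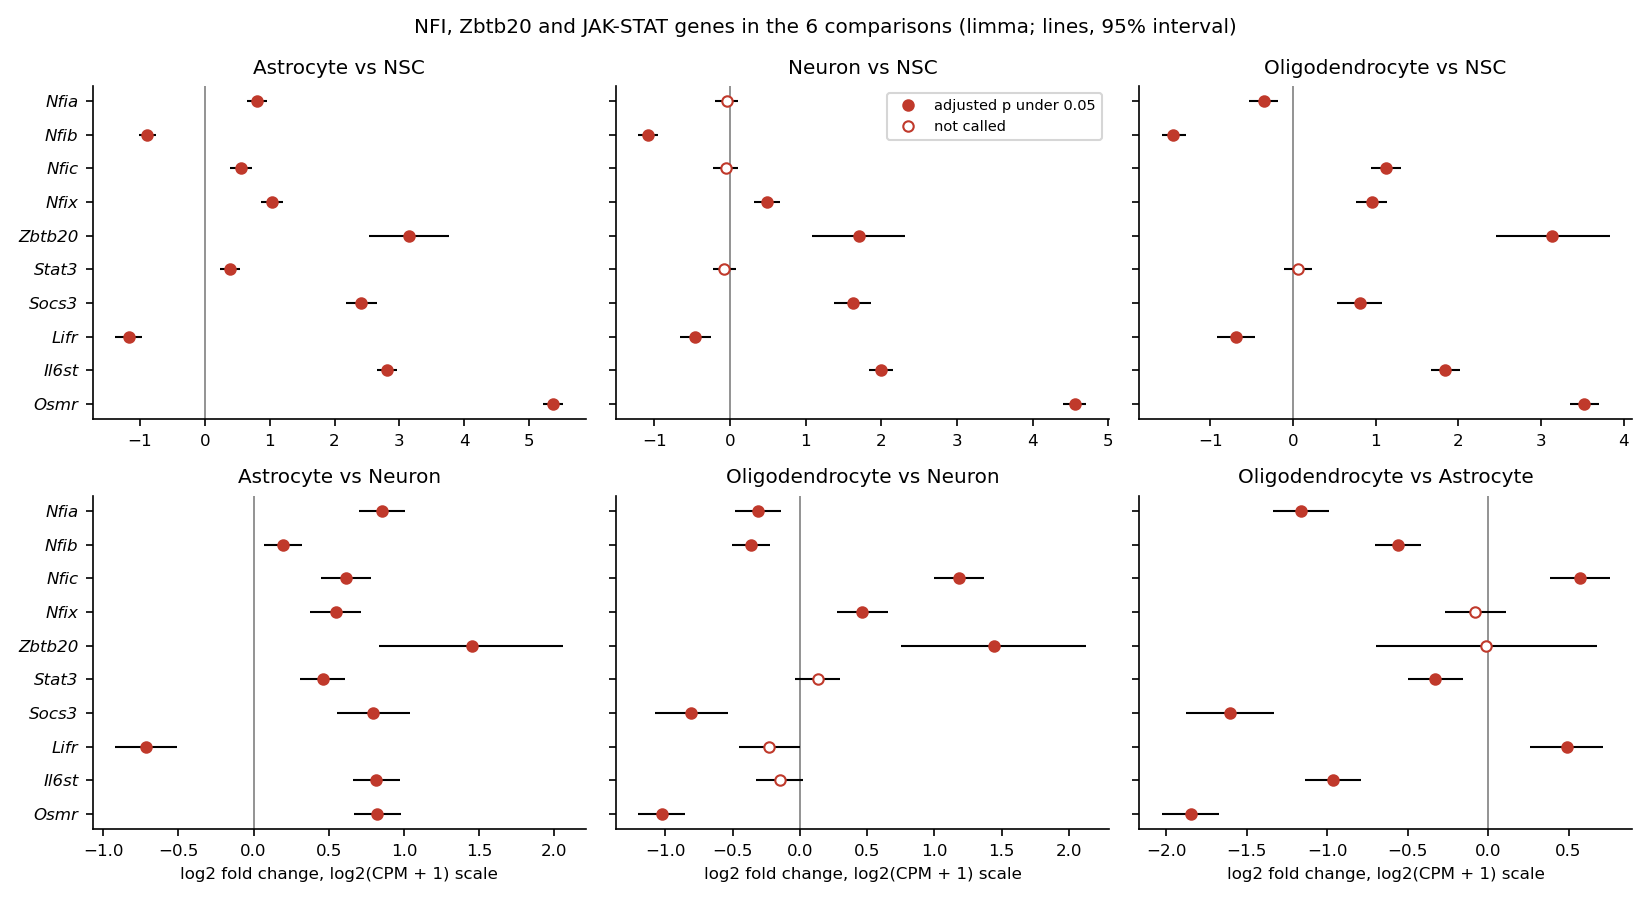
Log2 fold change (x axis, log2(CPM + 1) scale) of each of the 10 genes in the 6 comparisons, with lines for the 95% interval and filled points for adjusted p under 0.05. Osmr had the largest change against NSC in each medium (5.38, 4.55 and 3.53), and Nfib and Lifr lay left of 0 in all 3 comparisons with NSC.

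The nuclear factor I genes did not move as a family. Nfia (mm9 chr4:97439425-97868605, + strand) stood at 151.2, 150.4 and 141.6 CPM in the NSC libraries, 281.3, 261.5 and 237.4 in Astrocyte, 135.8, 143.6 and 150.3 in Neuron, and 109.85 and 120.8 in Oligodendrocyte. Its Astrocyte libraries were all above every other library and its Oligodendrocyte libraries all below, while Neuron and NSC overlapped. The log2 fold change against NSC was 0.81 ± 0.071 (SE; limma, adjusted p = 1.17e-07) in Astrocyte and −0.36 ± 0.0794 (adjusted p = 0.001) in Oligodendrocyte. In Neuron it was −0.05 with a 95% interval of −0.198 to 0.108 (adjusted p = 0.563). Oligodendrocyte was lower than Neuron by a log2 fold change of −0.31 (adjusted p = 0.00364), a call that was lost without Oligodendrocyte replicate 1 (−0.24, adjusted p = 0.0583).

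Nfib (mm9 chr4:81936077-82351654, − strand) fell in every medium. It stood at 369.2, 379.5 and 341.1 CPM in NSC, 202.0, 196.0 and 189.0 in Astrocyte, 171.1, 163.4 and 178.1 in Neuron, and 132.5 and 132.4 in Oligodendrocyte. No 2 of the 4 groups overlapped. The log2 fold changes against NSC were −0.89 ± 0.0593 (Astrocyte, limma adjusted p = 6.34e-09), −1.08 (Neuron, 8.17e-10) and −1.45 ± 0.0664 (Oligodendrocyte, 1.52e-10). Astrocyte lay above Neuron by 0.19 (adjusted p = 0.0117), which median-of-ratios scaling reduced to 0.08 (adjusted p = 0.225). With added T3 it was lower than without the addition, by −0.36 (adjusted p = 0.000296).

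Nfic (mm9 chr10:80858931-80893750, − strand) was highest with T3. Its values were 39.9, 42.7 and 40.1 CPM in NSC, 61.1, 62.7 and 58.4 in Astrocyte, 40.3, 34.5 and 43.6 in Neuron, and 89.4 and 91.9 in Oligodendrocyte. Neuron overlapped NSC, Astrocyte lay above both, and Oligodendrocyte lay above Astrocyte. Against NSC the log2 fold change was 1.13 ± 0.0856 in Oligodendrocyte (limma, adjusted p = 3.1e-08), 0.56 ± 0.0766 in Astrocyte (1.2e-05) and −0.06 in Neuron (95% interval −0.221 to 0.11, adjusted p = 0.511). The addition of T3 came with a rise of 1.18 over Neuron (adjusted p = 6.46e-08), opposite in direction to Nfia and Nfib in the same comparison.

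Nfix (mm9 chr8:87223775-87324243, − strand) rose in every medium. It stood at 154.8, 156.2 and 161.0 CPM in NSC, 342.7, 325.7 and 301.7 in Astrocyte, 224.4, 196.2 and 245.2 in Neuron, and 312.2 and 298.8 in Oligodendrocyte. The Astrocyte and Oligodendrocyte libraries overlapped, and both groups lay above Neuron, which lay above NSC. The log2 fold changes against NSC were 1.03 ± 0.0776 (Astrocyte, limma adjusted p = 2.25e-08), 0.49 (Neuron, 5.06e-05) and 0.95 ± 0.0868 (Oligodendrocyte, 2.11e-07). Oligodendrocyte differed from Astrocyte by −0.08, with a 95% interval of −0.268 to 0.108 (adjusted p = 0.461).

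**Figure D2:**
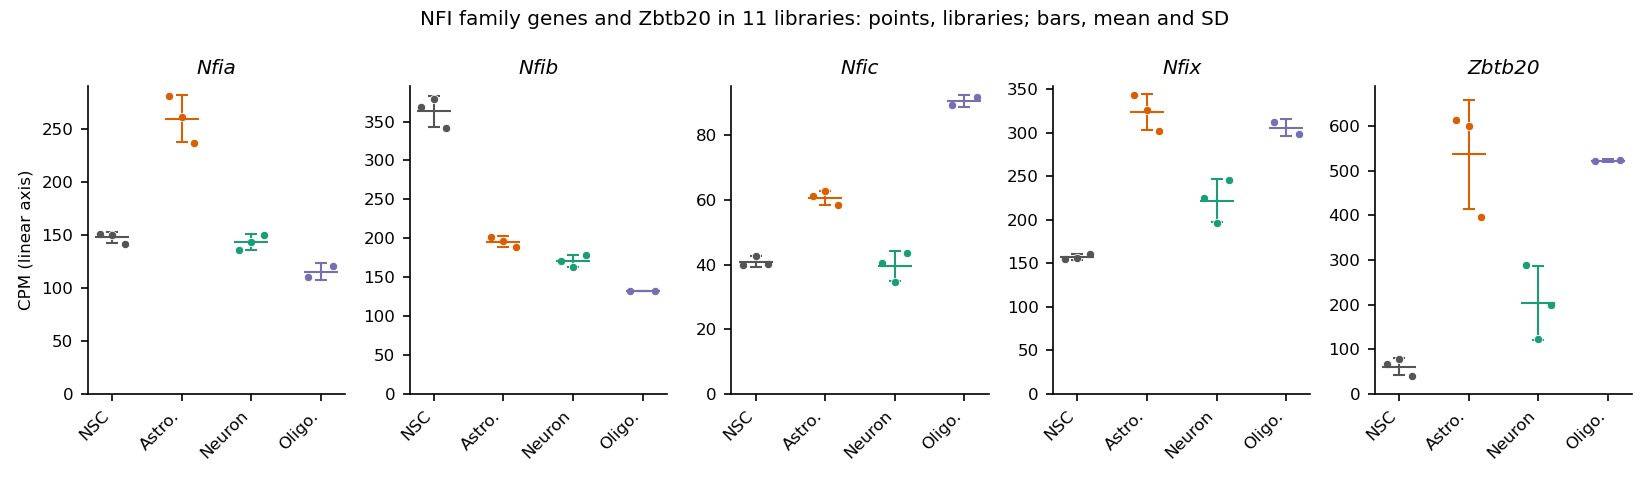
CPM (y axis, linear, from 0) of the nuclear factor I genes and Zbtb20 in each library; bars give the mean and SD of a group (n = 3, 3, 3 and 2). Nfia peaks in Astrocyte, Nfib in NSC and Nfic in Oligodendrocyte, and the Zbtb20 libraries of NSC, Astrocyte and Neuron are spread widely.

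Levels of different genes were compared only per kilobase of merged exons (GENCODE M21 basic), as a description. On that scale Nfib made up 46.8% of the summed level of the 4 nuclear factor I genes in NSC, followed by Nfix with 27.5%, Nfia with 18.4% and Nfic with 7.33%. Nfix led in every day 4 medium, with 45.2% in Astrocyte, 45.3% in Neuron and 52.9% in Oligodendrocyte. Nfib was second in Neuron (25.6%) and Oligodendrocyte (16.9%), and Nfia was second in Astrocyte (25.9%). In Oligodendrocyte Nfic (16.1%) reached a higher share than Nfia (14.2%).

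The balance inside the family was tested as a ratio within each library, which no scaling of a whole library changes apart from the pseudocount. The mean log2 ratio of Nfib to Nfia was 1.29 in NSC, −0.41 in Astrocyte, 0.25 in Neuron and 0.20 in Oligodendrocyte, and it differed across the 4 groups (exact permutation test of the F statistic over 92400 assignments, p = 0.00032, BH-adjusted over 8 ratios 0.00043). The ratio of Nfix to Nfia rose from 0.09 in NSC to 0.31, 0.62 and 1.40 in Astrocyte, Neuron and Oligodendrocyte (exact permutation p = 6.5e-05, the smallest this design allows, adjusted 0.00026). The ratio of Nfic to Nfia was −1.83, −2.08, −1.84 and −0.34 in NSC, Astrocyte, Neuron and Oligodendrocyte (exact permutation p = 0.0018, adjusted 0.0018). These ratios are of CPM without correction for length, so their differences between groups can be read but not which gene of a pair is higher. Most genes differ between these groups, and pairs other than the 8 were not tested. How often the ratio of any 2 genes differs in this way is therefore not known. The ratio of Nfib to Nfia was thus highest in NSC, and that of Nfic to Nfia in Oligodendrocyte.

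Zbtb20 (mm9 chr16:42875994-43642715, + strand), a transcriptional repressor gene, was the most changed of the transcription factor genes and the least reproducible. It stood at 66.8, 77.5 and 38.7 CPM in NSC, 615.1, 600.3 and 396.3 in Astrocyte, 287.8, 123.8 and 199.3 in Neuron, and 521.2 and 525.1 in Oligodendrocyte. All day 4 libraries lay above all NSC libraries, Neuron lay below the other 2 media, and Astrocyte and Oligodendrocyte overlapped. The log2 fold change against NSC was 3.15 ± 0.284 in Astrocyte (limma, adjusted p = 1.6e-07), 1.70 in Neuron (8.12e-05) and 3.14 ± 0.318 in Oligodendrocyte (6.4e-07). Oligodendrocyte was above Neuron by 1.44 (adjusted p = 0.00132), and Astrocyte above Neuron by 1.45 (0.000598). Oligodendrocyte and Astrocyte differed by −0.01, with a wide 95% interval of −0.698 to 0.677 (adjusted p = 0.981).

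The pooled SD of Zbtb20 within groups was 0.467 on the log2 scale, larger than that of 99.9% of the 9372 genes that averaged 10 CPM or more, whose median was 0.0955. The other 9 genes ranked between 14.8% and 85.1%. NSC replicate 3, Astrocyte replicate 3 and Neuron replicate 2 were the low libraries, at −0.586, −0.41 and −0.631 from their group means. Zbtb20 has 27.1 kb of merged exons, a length exceeded by 3 of these genes with an annotated length, and the same 3 libraries were the lowest of their groups in the median deviation of 369 other genes with at least 10 kb of exons (−0.143, −0.139 and −0.33). The median deviation of the 8937 shorter genes was 0.0394, −0.00346 and −0.0193 in those libraries. Over the 11 libraries the deviation of Zbtb20 and that of the long genes had a Pearson r of 0.935, given as a description. The part of transcript length in the spread of Zbtb20 was not tested. Neuron replicate 2 also had the highest share of mitochondrial reads, 11.4% of the listed total.

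Without those 3 libraries, an alternative chosen after seeing the data, Zbtb20 was higher than NSC by 3.06 in Astrocyte, 1.72 in Neuron and 2.85 in Oligodendrocyte, and the calls of the full set were kept for Zbtb20 in all 6 comparisons. The median log2 fold change of the 369 long genes against NSC was −0.01, 0.12 and 0.19 in these media. The ratio of Zbtb20 to Nfia within a library was −1.32 in NSC, 1.02 in Astrocyte, 0.42 in Neuron and 2.17 in Oligodendrocyte (log2; exact permutation p = 0.00019, adjusted over 8 ratios 0.00039).

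**Figure D3:**
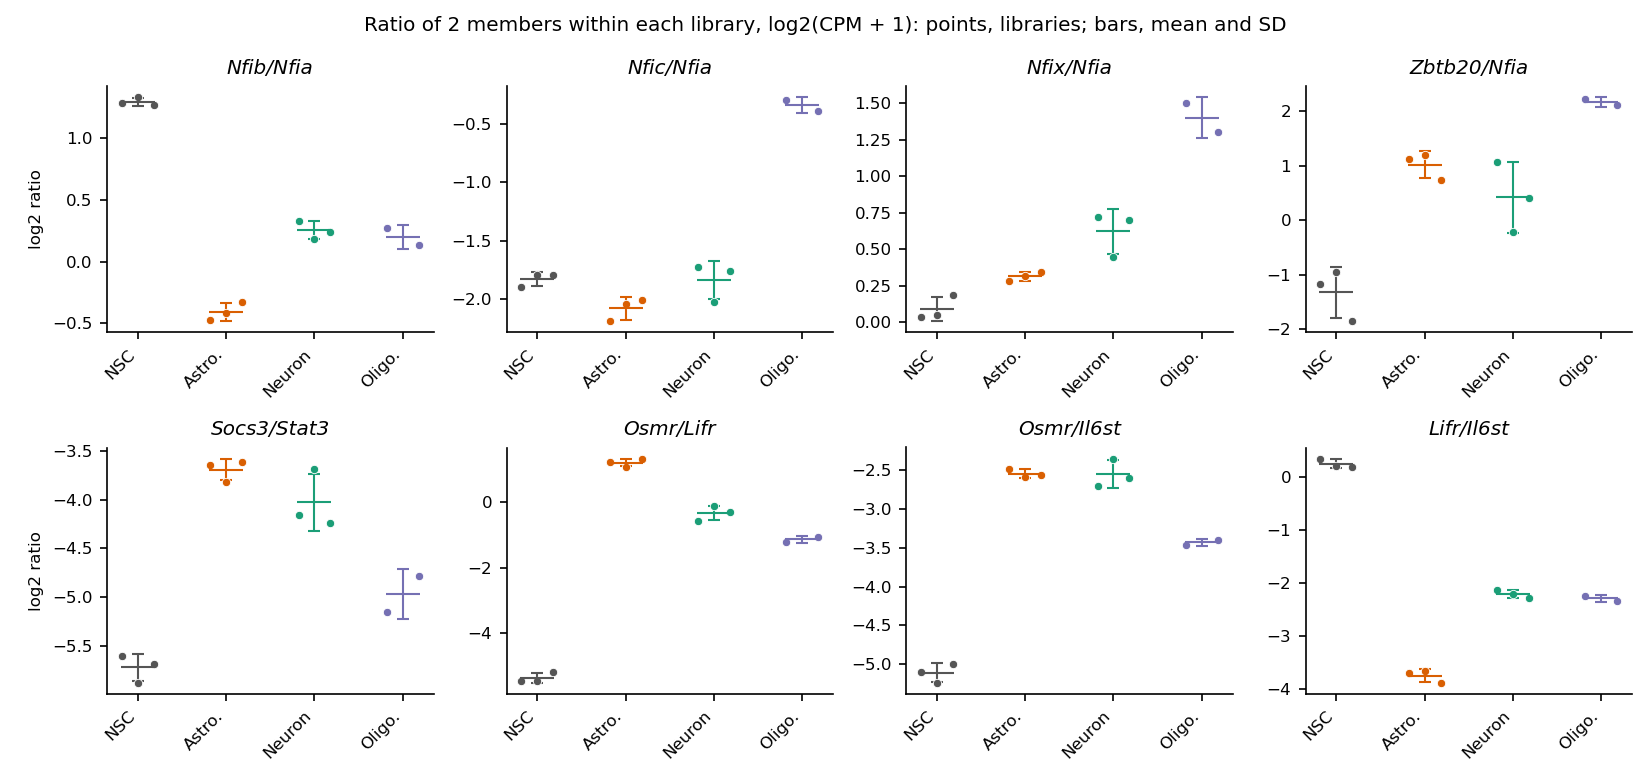
Log2 ratio of a pair of genes within each library (y axis, log2(CPM + 1) scale; points, libraries; bars, mean and SD of a group). Nfib over Nfia is highest in NSC, Zbtb20 over Nfia highest in Oligodendrocyte, and Osmr over Lifr lowest in NSC (−5.35) and highest in Astrocyte (1.20), all uncorrected for length.

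The receptor genes changed in opposite directions. Osmr, Il6st and Socs3 are shown with the 250 bases before their RefSeq transcription start (GRCm38.p6), because their mean levels followed the same order of groups, Astrocyte above Neuron above Oligodendrocyte above NSC. Capitals mark matches to the loose STAT motif TTCNNNGAA and to TTGGC, an arm of the nuclear factor I palindrome, read on both strands (GCCAA is its reverse complement). Each is written 5′ to 3′ in the direction of the gene. The windows lie at chr15:6874314-6874563 (− strand) for Osmr, chr13:112463820-112464069 (+ strand) for Il6st and chr11:117969367-117969616 (− strand) for Socs3.
Osmr: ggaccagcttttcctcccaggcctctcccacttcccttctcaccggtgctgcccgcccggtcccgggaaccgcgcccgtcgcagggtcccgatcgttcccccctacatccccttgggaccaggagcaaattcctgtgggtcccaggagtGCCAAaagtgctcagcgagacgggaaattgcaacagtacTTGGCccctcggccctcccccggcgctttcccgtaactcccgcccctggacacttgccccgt
Il6st: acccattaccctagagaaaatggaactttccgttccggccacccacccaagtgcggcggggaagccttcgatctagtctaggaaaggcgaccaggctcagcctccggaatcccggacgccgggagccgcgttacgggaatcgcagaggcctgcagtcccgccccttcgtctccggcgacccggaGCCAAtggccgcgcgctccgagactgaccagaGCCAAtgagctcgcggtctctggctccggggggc
Socs3: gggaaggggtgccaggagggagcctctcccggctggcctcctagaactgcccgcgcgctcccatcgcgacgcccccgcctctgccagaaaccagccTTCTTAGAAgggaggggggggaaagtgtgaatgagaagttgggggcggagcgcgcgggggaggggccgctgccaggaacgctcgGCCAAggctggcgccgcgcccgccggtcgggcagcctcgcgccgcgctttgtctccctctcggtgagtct
Of the 3, the loose STAT motif occurred only in the Socs3 window, at −154 to −146. Windows of 250 bases before to 50 after the start were given for 9 of the 10 genes (13 windows, none for Nfib). The loose STAT motif was in 4 of the 13 windows (Nfic, Nfix, Zbtb20 and Socs3) and in 8.3% of all 32851 windows. The stricter TTCCNGGAA was in 1 window, of Nfix, and in 1.15% of all. TTGGC was in 8 of 13 windows and 46.7% of all, and the full palindrome, TTGGC and GCCAA with 5 bases between them, was in 0 of 13 and 0.0365%. Both Il6st matches read GCCAAT on the printed strand, letters shared with the CCAAT box. A match describes the letters and does not show a bound site.

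Osmr (mm9 chr15:6763577-6824969, − strand), which encodes a receptor chain for oncostatin M, was below 1 CPM at day 0 and rose in every medium. Its values were 0.74, 0.73 and 0.76 CPM in NSC, 75.3, 71.7 and 67.4 in Astrocyte, 36.9, 41.9 and 41.2 in Neuron, and 18.4 and 19.7 in Oligodendrocyte. No 2 groups overlapped. The ratio of group means to NSC was 96.1 in Astrocyte, 53.8 in Neuron and 25.7 in Oligodendrocyte. On the log2(CPM + 1) scale, which understates the change of a low gene, the differences were 5.38 ± 0.0729, 4.55 and 3.53 ± 0.0815 (limma, adjusted p = 2.26e-15, 9.45e-15 and 2.73e-13). Between media Osmr was higher in Astrocyte than in Neuron by 0.82 (adjusted p = 4.9e-07), and lower with added T3 than without the addition by −1.03 (1.5e-07).

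Il6st (mm9 chr13:113265216-113297068, + strand), which encodes the shared chain gp130, was already expressed at day 0. It stood at 58.6, 64.4 and 55.3 CPM in NSC, 424.8, 435.7 and 403.7 in Astrocyte, 245.0, 217.7 and 255.6 in Neuron, and 213.3 and 217.5 in Oligodendrocyte. All day 4 libraries were above NSC and all Astrocyte libraries above the other media, while the lowest Neuron library and the highest Oligodendrocyte library lay side by side. The log2 fold changes against NSC were 2.81 ± 0.0724, 1.99 and 1.84 ± 0.0809 in Astrocyte, Neuron and Oligodendrocyte (limma, adjusted p = 3.38e-13, 1.08e-11 and 9.8e-11). Oligodendrocyte differed from Neuron by −0.15 (95% interval −0.324 to 0.026, adjusted p = 0.12), but by −0.30 under median-of-ratios scaling (0.00387), −0.19 under quantile normalization (0.0487) and −0.22 without Neuron replicate 2 (0.0124).

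Lifr (mm9 chr15:7079559-7147489, + strand), the chain that pairs with gp130 for LIF, CNTF and cardiotrophin-1, fell in every medium. Its values were 74.3, 73.8 and 63.2 CPM in NSC, 31.9, 33.5 and 26.6 in Astrocyte, 55.0, 46.2 and 51.4 in Neuron, and 44.2 and 42.2 in Oligodendrocyte. No 2 groups overlapped, and Astrocyte was lowest. The log2 fold changes against NSC were −1.18 ± 0.0942, −0.46 and −0.69 ± 0.105 (limma, adjusted p = 4.38e-08, 0.000452 and 3.84e-05). Lifr differed by −0.23 between Oligodendrocyte and Neuron (adjusted p = 0.072), and passed the threshold under 6 of 21 alternatives (−0.40 to −0.23).

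Per kilobase of exon, Lifr was at 6.78, Il6st at 5.42 and Osmr at 0.135 CPM in NSC. In Astrocyte the same levels were 2.95 for Lifr, 38.4 for Il6st and 13.0 for Osmr. In Neuron they were 4.90, 21.8 and 7.28, and in Oligodendrocyte 4.16, 19.6 and 3.48, so Osmr exceeded Lifr in Astrocyte and Neuron and not in NSC or Oligodendrocyte. The mean log2 ratio of Osmr to Lifr, uncorrected for length, was −5.35 in NSC, 1.20 in Astrocyte, −0.34 in Neuron and −1.14 in Oligodendrocyte (exact permutation p = 6.5e-05, adjusted over 8 ratios 0.00026). The ratio of Lifr to Il6st was 0.24, −3.74, −2.21 and −2.29 in the same order (exact permutation p = 0.00026, adjusted 0.00042). The ratio of Osmr to Il6st was −5.11 in NSC, −2.54 in Astrocyte, −2.55 in Neuron and −3.43 in Oligodendrocyte (exact permutation p = 0.00058, adjusted 0.00067). The Astrocyte and Neuron libraries overlapped in this last ratio, and the Oligodendrocyte libraries lay below both and above NSC.

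Stat3 (mm9 chr11:100746412-100800854, − strand) itself changed little. It stood at 187.4, 192.2 and 187.6 CPM in NSC, 257.9, 251.1 and 233.1 in Astrocyte, 184.7, 160.7 and 194.4 in Neuron, and 197.2 and 195.9 in Oligodendrocyte. Astrocyte lay above all other libraries, and Neuron overlapped NSC. The log2 fold change against NSC was 0.38 ± 0.0701 in Astrocyte (limma, adjusted p = 0.00017), −0.08 in Neuron (95% interval −0.227 to 0.0762, adjusted p = 0.329) and 0.06 in Oligodendrocyte (−0.114 to 0.225, adjusted p = 0.521). These are transcript levels, and phosphorylation of the protein was not measured here.

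Socs3 (mm9 chr11:117827393-117831361, − strand) rose in each medium from a low level. Its values were 2.87, 2.28 and 2.66 CPM in NSC, 19.7, 16.9 and 18.1 in Astrocyte, 9.42, 11.5 and 9.34 in Neuron, and 4.58 and 6.12 in Oligodendrocyte. No 2 groups overlapped. The log2 fold changes against NSC were 2.42 ± 0.113 in Astrocyte, 1.62 in Neuron and 0.81 ± 0.126 in Oligodendrocyte (limma, adjusted p = 1.37e-10, 1.06e-08 and 4.6e-05). The Oligodendrocyte call was lost under quantile normalization, at 0.18 (adjusted p = 0.247). Socs3 was lower with added T3 than without the addition, by −0.81 (adjusted p = 8.04e-05). The ratio of Socs3 to Stat3 within a library was −5.72 in NSC, −3.69 in Astrocyte, −4.03 in Neuron and −4.97 in Oligodendrocyte (log2; exact permutation p = 0.00013, adjusted over 8 ratios 0.00035).

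**Figure D4:**
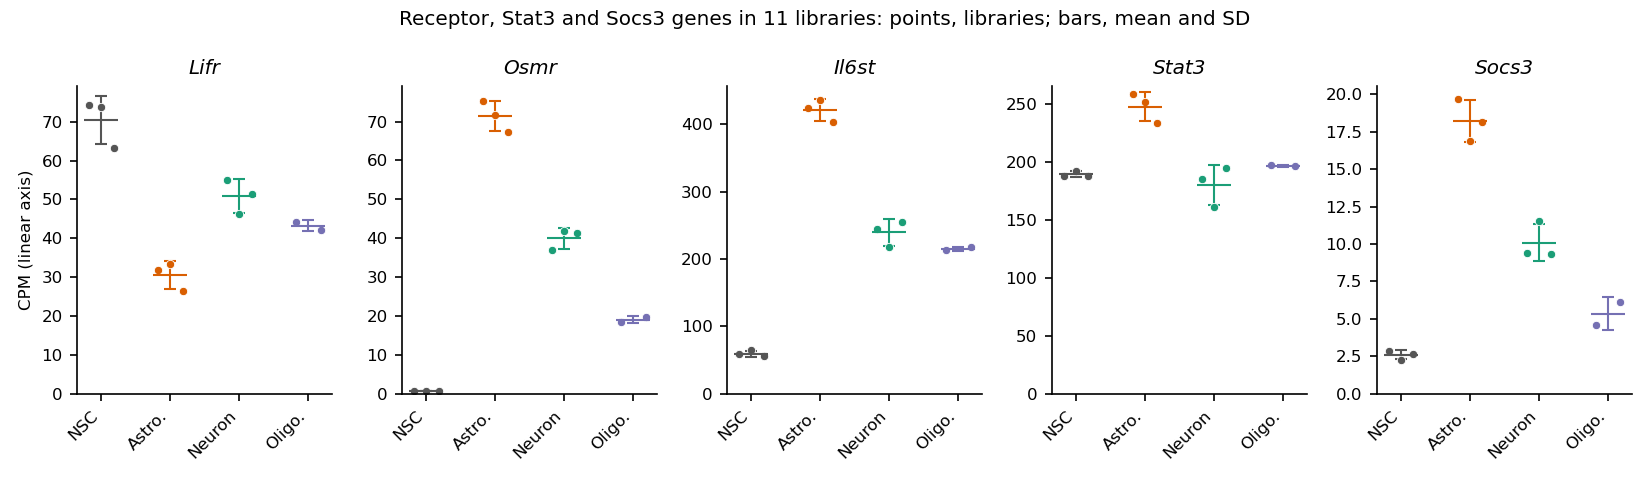
CPM (y axis, linear, from 0) of the receptor genes, Stat3 and Socs3 in each library; bars give the mean and SD of a group (n = 3, 3, 3 and 2). The means of Osmr, Il6st and Socs3 fall from Astrocyte to Neuron to Oligodendrocyte to NSC, and Lifr is highest in NSC and lowest in Astrocyte.

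Levels of other cell types' markers are given beside this order, Astrocyte above Neuron above Oligodendrocyte above NSC. The mesenchymal sum followed it, as did the means of Pdgfrb, which was not called between Astrocyte and Neuron (limma, adjusted p = 0.162). Acta2 was lowest in Neuron. Twist1 was called lower in each medium than in NSC. Its means were 1.51 CPM in NSC, 0.713 in Astrocyte, 0.453 in Neuron and 0.30 in Oligodendrocyte. Endothelial markers did not follow this order, with sums of 1.35 to 2.12 CPM in Neuron and 2.61 to 2.81 in NSC. Neither did microglial markers, with 0.55 to 0.77 in Neuron and 1.01 to 1.08 in Oligodendrocyte. The summed mesenchymal markers were 9.43 to 12.2 CPM in NSC, 81.6 to 90.1 in Astrocyte, 38.9 to 45.3 in Neuron and 19.3 to 19.4 in Oligodendrocyte. In that list of 8 genes the day 4 levels came from Pdgfrb (0.263 ± 0.03 SD in NSC, 41.9 ± 0.41 in Astrocyte, 37.5 ± 3.5 in Neuron and 8.82 ± 1.7 in Oligodendrocyte) and Acta2 (8.36, 42.0, 2.94 and 9.86), while the collagen genes Col1a1 and Col1a2 were below 1 CPM in every group and Lum was at 0 at day 4. Microglial markers summed to 0.29 to 1.32 CPM over all libraries, and endothelial markers to 1.35 to 7.42, of which Kdr was 5.99 in Astrocyte. The astrocyte sum, given above, was higher in Astrocyte than in Neuron, but 6 of its 10 markers were called lower there and only Gfap, Gja1 and Aqp4 higher. The part of culture composition in these levels was not tested.

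Among the cytokines that use gp130, 3 of the 7 genes described here passed the filter. In Astrocyte against NSC 2 were higher and 1 was not called, and in Neuron the counts were the same. In Oligodendrocyte 1 was higher and 2 were not called. Over all tested genes 83.6%, 83.1% and 80.2% were called in Astrocyte, Neuron and Oligodendrocyte against NSC (48.0%, 43.5% and 48.1% higher). Counts over so few genes cannot be told apart from that background. Clcf1, a CNTF receptor ligand, stood at 1.35 ± 0.28 CPM in NSC (SD, n = 3) and rose to 13.1 ± 1.9 in Astrocyte, 5.15 ± 1.2 in Neuron and 8.78 in Oligodendrocyte. Lif was at 2.17, 1.63, 2.01 and 2.98 CPM in NSC, Astrocyte, Neuron and Oligodendrocyte and was not called against NSC. The Osm gene, whose product binds the Osmr chain, was listed at 0 in all 11 libraries, and Il6, Il11 and Cntf had means below 1 CPM in every group.

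Of 4 co-receptor genes 3 passed the filter, and all 3 were higher in each medium than in NSC (background 48.0%, 43.5% and 48.1% higher). Cntfr, the CNTF receptor gene, was at 20.8 ± 1.7 CPM in NSC, 64.0 ± 5.0 in Astrocyte, 50.4 ± 2.9 in Neuron and 94.3 ± 2.9 in Oligodendrocyte. It was higher with added T3 than without the addition by a log2 fold change of 0.89 ± 0.0854 (limma, adjusted p = 9.11e-07), where Osmr was lower. Il11ra1 was at 2.94, 17.0, 13.8 and 19.0 CPM, and Il6ra at 0.45, 2.5, 1.08 and 1.72 CPM in NSC, Astrocyte, Neuron and Oligodendrocyte.

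Of the 4 Janus kinase genes, Jak1 rose in each medium, from 93.7 ± 1.0 CPM to 216.6 ± 5.0 in Astrocyte, 182.6 ± 11 in Neuron and 185.9 ± 5.3 in Oligodendrocyte. Jak2 was at 114.2 in NSC and 117.5 in Neuron, and fell to 84.7 in Astrocyte (log2 fold change −0.43, limma adjusted p = 9.5e-06) and 62.9 in Oligodendrocyte (−0.85, 2.89e-08). Jak3 rose from 0.62 to 5.69, 1.49 and 4.28 CPM, and Tyk2, between 11.3 and 13.9 CPM, was called in none of the 6 comparisons. Osmr, Il6ra, Jak3, Stat5a, Stat6, Socs1, Ctf1 and, among the genes below, Serpina3n, Il4ra, Bcl3, Steap4, S100b, Neurog2 and Neurod1 averaged under 1 CPM in NSC and passed the filter through day 4 libraries, so their presence among the higher genes is partly set by the filter.

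Other STAT genes that passed the filter separated Neuron from the other media. Stat2, Stat5a, Stat5b and Stat6 were each higher in Astrocyte and in Oligodendrocyte than in NSC, and higher in each of those media than in Neuron (background 48.0% and 48.1% higher against NSC, 40.3% and 43.9% against Neuron). None of these 4 genes was called in Neuron against NSC by limma. Stat5a was at 0.777 in NSC and 0.797 in Neuron but at 7.33 in Astrocyte and 10.6 in Oligodendrocyte, a difference with T3 of 2.69 (log2, limma adjusted p = 2.49e-09). Stat2, Stat5b and Stat6 followed with 15.4, 27.5, 14.1 and 23.1 CPM, with 26.4, 33.6, 24.3 and 36.0 CPM, and with 0.35, 1.70, 0.44 and 1.40 CPM in NSC, Astrocyte, Neuron and Oligodendrocyte. Stat3 differed from them in that it was not called in Oligodendrocyte against NSC or against Neuron (0.13, 95% interval −0.0383 to 0.301, adjusted p = 0.155), a contrast between genes that was not tested.

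Other inhibitors of the pathway, 14 of 15 of which passed the filter, split by direction, with median log2 fold changes against NSC of 0.03, −0.08 and −0.22 in Astrocyte, Neuron and Oligodendrocyte. In Astrocyte against NSC 6 were higher and 4 lower, in Neuron 3 and 3, and in Oligodendrocyte 5 and 7. The 10, 6 and 12 of 14 called compare with 83.6%, 83.1% and 80.2% called over all tested genes. Socs2 was at 6.42 ± 0.13 CPM in NSC, 17.1 ± 1.4 in Astrocyte, 5.76 ± 0.24 in Neuron and 2.38 ± 0.05 in Oligodendrocyte. Socs1 (0.32, 2.34, 0.91 and 1.18 CPM) and Socs7 (35.4, 74.0, 57.4 and 50.7 CPM) rose in each medium, as Socs3 did. Socs5 fell in each, from 48.5 to 24.6, 21.0 and 35.4 CPM. Ptpn11, which encodes the phosphatase SHP2, was at 180.1 ± 4.6 CPM in NSC, 214.1 ± 9.4 in Astrocyte, 171.6 ± 20 in Neuron and 353.9 ± 16 in Oligodendrocyte, higher with T3 by 1.05 (log2, limma adjusted p = 2.02e-07). Ptpn1 fell from 83.5 CPM to 58.4, 42.0 and 59.7, and Ptpn2 was at 26.8, 25.4, 17.8 and 19.4 CPM. Pias1 was at 35.7, 44.0, 50.6 and 38.2 CPM, Pias2 at 90.2, 77.8, 92.0 and 69.4, Pias3 at 24.3, 26.6, 23.0 and 31.3, and Pias4 at 17.6, 15.4, 15.9 and 23.7. Cish ranged from 1.04 to 2.24 CPM over the group means, Socs6 from 39.7 to 48.4, and Socs4, from 58.3 to 65.1, was called in no comparison.

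Of 20 genes known to respond to STAT3, 18 passed the filter. In Astrocyte against NSC 13 were higher and 4 lower, and in Neuron and in Oligodendrocyte 11 were higher and 4 lower. The 17, 15 and 15 of 18 called lie near the 83.6%, 83.1% and 80.2% of all tested genes. Their median log2 fold change was 0.86 in Astrocyte, 0.31 in Neuron and 0.71 in Oligodendrocyte, beside 0.15, 0.06 and 0.19 over all tested genes. Serpina3n, an acute-phase gene of reactive astrocytes, followed the order of Osmr and Socs3, with 0.28 ± 0.05 CPM in NSC, 32.9 ± 3.5 in Astrocyte, 7.99 ± 1.2 in Neuron and 3.04 in Oligodendrocyte. Cp, the ceruloplasmin gene, had 16.5, 103.6, 68.8 and 47.5 CPM in the same order. Pim3, a kinase gene, went the other way among the media, with 13.8 ± 0.39 CPM in NSC, 31.0 ± 4.2 in Astrocyte, 56.0 ± 3.6 in Neuron and 113.8 ± 6.3 in Oligodendrocyte. Pim1 rose in Neuron, from 3.25 to 14.9 CPM, and was not called against NSC in the other media, and Myc fell in all, from 98.5 ± 6.0 CPM to 27.6 ± 4.1, 58.5 ± 5.1 and 21.3.

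**Figure D5:**
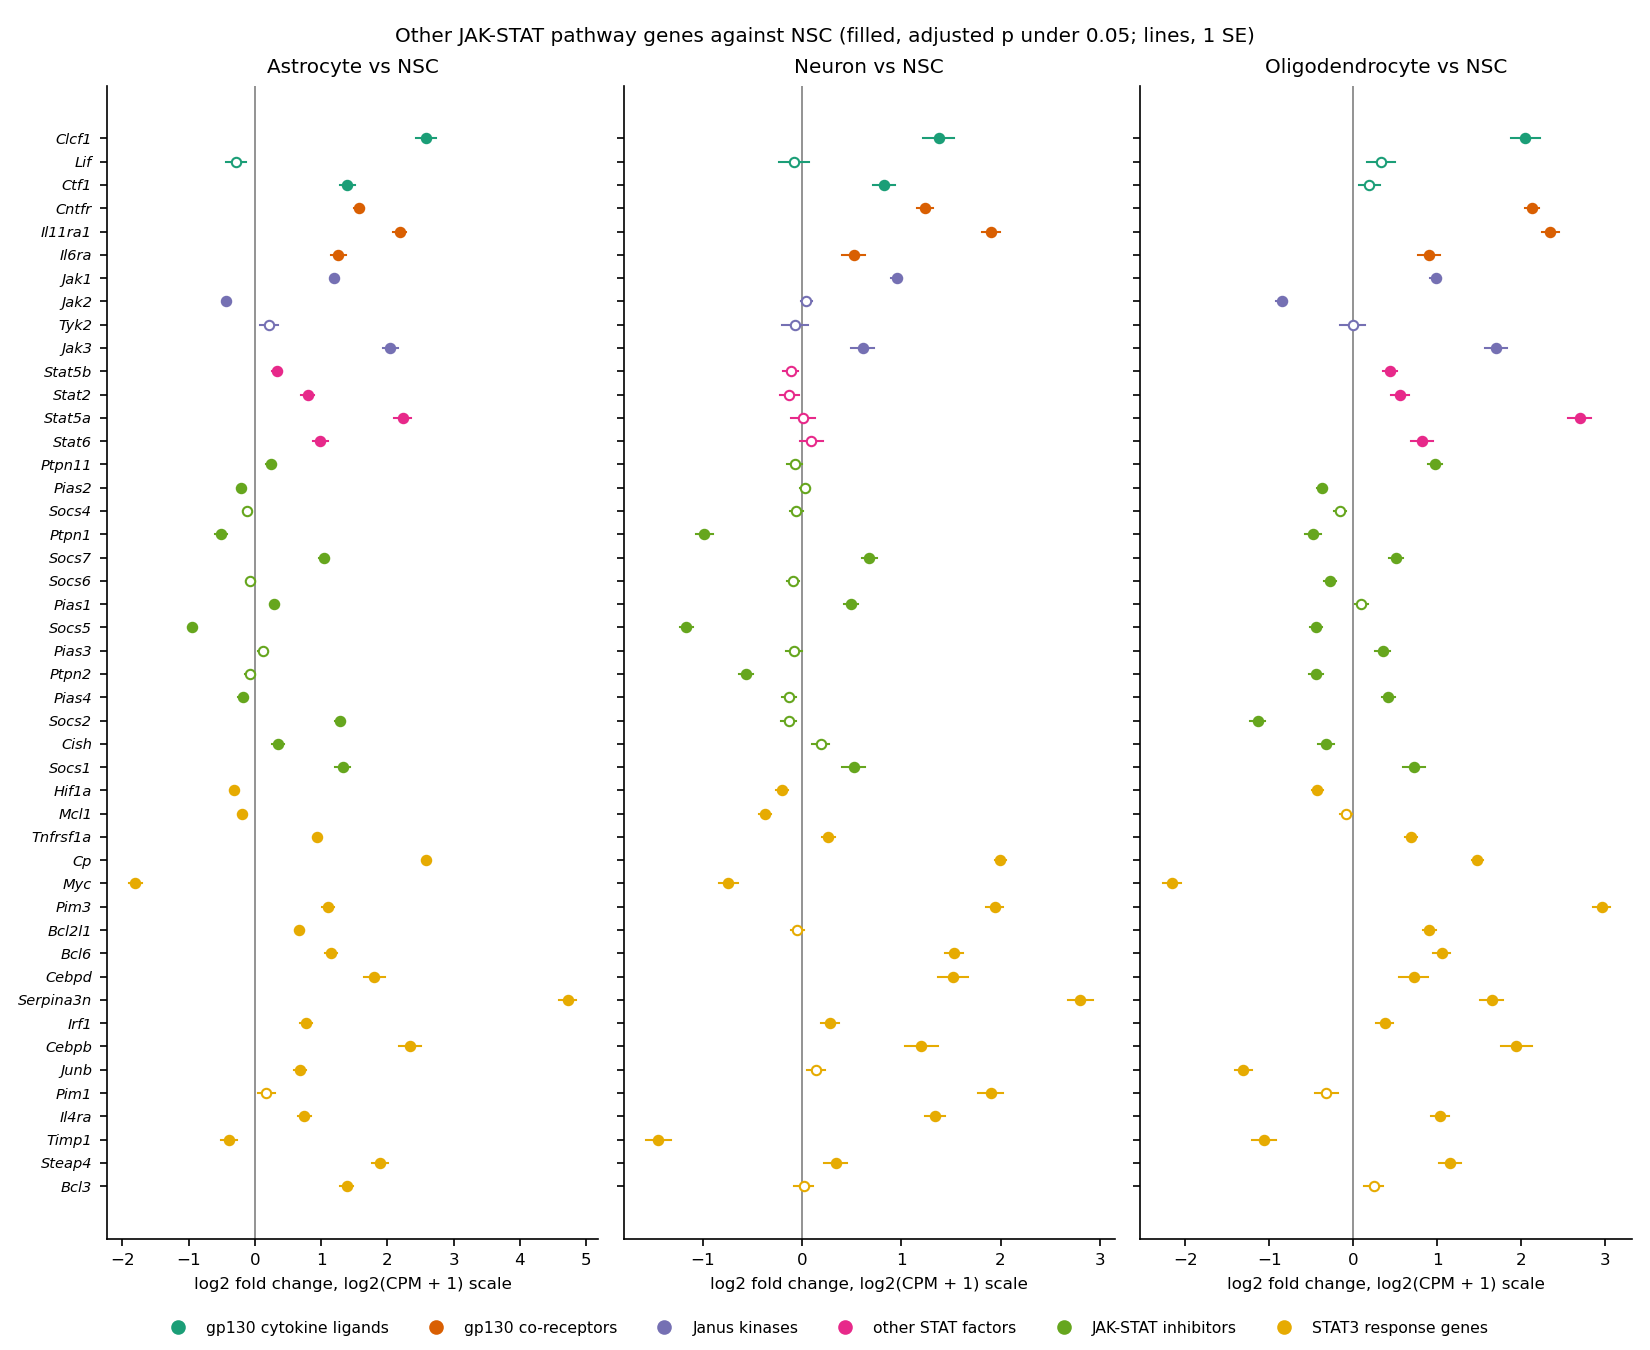
Log2 fold change against NSC (x axis, log2(CPM + 1) scale) of 46 other genes of the JAK-STAT pathway, coloured by role; lines give 1 SE and filled points adjusted p under 0.05. The co-receptor genes lie right of 0 in all 3 panels, and in Neuron the open points of Stat2, Stat5a, Stat5b and Stat6 lie near 0.

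Among 12 glial genes linked to nuclear factor I, of which 5 (Gfap, Aqp4, S100b, Slc1a3 and Aldh1l1) are also astrocyte markers, the median log2 fold change against NSC was 1.77 in Astrocyte, 2.11 in Neuron and 1.46 in Oligodendrocyte. Of the 12, 9 were higher and 1 lower in Astrocyte than in NSC, 11 and 1 in Neuron, and 7 and 4 in Oligodendrocyte, where 83.6%, 83.1% and 80.2% of all tested genes were called (48.0%, 43.5% and 48.1% higher). In Astrocyte against Neuron 2 were higher (Gfap and Aqp4) and 8 lower, with a background of 40.3% higher and 22.0% lower. In Oligodendrocyte against Neuron 0 were higher and 10 lower by limma, with a background of 43.9% and 23.6%. Gfap, the astrocyte filament gene and a target of STAT3 as well, was at 2.22 ± 0.36 CPM in NSC, 7631 ± 934 in Astrocyte, 2647 ± 190 in Neuron and 284.4 ± 21 in Oligodendrocyte. Aqp4, the astrocyte water channel gene, was at 15.2, 1479, 763 and 85.6 CPM, and Apoe at 71.7, 5477, 4905 and 1767 CPM. Mmd2, a gene that Nfia and Sox9 regulate at the onset of gliogenesis, was at 23.7 ± 2.5, 309 ± 23, 369 ± 27 and 222.8 ± 7.0 CPM. Cspg5 was at 169 ± 12 CPM in NSC and 166 ± 4.3 in Astrocyte, against 415 ± 63 in Neuron and 84.1 in Oligodendrocyte. Fabp7, a radial glia gene, fell in all media, from 1723 to 617, 1108 and 639.6 CPM.

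Other regulators of gliogenesis, 13 of 14 of which passed the filter, moved both ways: 6 were higher and 4 lower in Astrocyte than in NSC, 7 and 4 in Neuron, and 6 and 5 in Oligodendrocyte. The 10, 11 and 11 of 13 called lie near the background of 83.6%, 83.1% and 80.2%. Sox9, a partner of Nfia, was at 87.7 ± 0.84 CPM in NSC, 359.8 ± 27 in Astrocyte, 339.7 ± 6.6 in Neuron and 181.4 ± 8.8 in Oligodendrocyte. Sox9 thus rose in Neuron, where Nfia was not called. Bmpr1b, a BMP receptor gene, rose most in Neuron (from 36.6 to 155.9 CPM), and the BMP target gene Id3 was lowest there (75.6 CPM in NSC, 35.8 in Astrocyte, 10.9 in Neuron and 22.2 in Oligodendrocyte). The Notch effector gene Hes1 fell from 20.2 CPM to 4.58, 9.33 and 6.26. Hes5 was at 13.9, 7.22, 23.4 and 3.67 CPM, and Sox8 at 148.6, 137.8, 238 and 289.6 CPM. Of the 8 neurogenic bHLH and T-box factors described here 2 passed the filter, Neurog2 and Neurod1, both through day 4 libraries. Neurog2 was at 0.10, 0.39, 2.13 and 1.39 CPM and Neurod1 at 0.527, 0.30, 0.973 and 0.085 CPM in NSC, Astrocyte, Neuron and Oligodendrocyte.

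Over the 11 libraries the genes with the closest pattern were sought among 10294 genes that are not in the set, by Pearson r of log2(CPM + 1), as a description. The 11 points share 4 groups, so r mostly reflects group means. Nfia was closest to Nde1 (0.967), Glt25d2 (0.960) and BC046404 (0.958), and Stat3 to Sipa1l1 (0.979), Mprip (0.976) and Arhgef17 (0.965). Zbtb20 was closest to Hivep2 (0.989), Ston2 (0.989) and Clmn (0.987), and Osmr to Ltbp3 (0.998), Itih5 (0.998) and 2810459M11Rik (0.998). Mean levels of Itih5 were 0.697 CPM in NSC, 40.8 in Astrocyte, 23.7 in Neuron and 14.0 in Oligodendrocyte. Their order over the groups was that of Osmr. Within the set Il6st and Osmr had an r of 0.986, Nfix and Zbtb20 0.966, Socs3 and Osmr 0.942, and Nfia and Stat3 0.837, and Lifr and Il6st had −0.895.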

How the data were processed

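The authors deposited a single table of CPM values, rounded to 2 decimals, with 1 column per library, Ensembl identifiers, symbols and mm9 gene coordinates, per the file headers. Libraries were made from total RNA with a stranded mRNA kit, per the labels' protocols. The submitters' processing notes name bcl2fastq 1.8.4, TopHat2 2.0.8, HTSeq 0.6.1, edgeR 3.2.4, R 3.0.0 and HOMER and build NCBIM37, without roles; whether counting used the strand is not given in the sources used here. The listed genes summed to 74.95% to 80.25% of the full CPM scale, so the denominator held other reads. CPM values near 0 fell on steps that gave the depth, but after rounding only 24.1% to 60.7% lay within 0.1 read of a whole number, so no count model was used. The 8 columns of authors' group means and SDs were not used.

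Values were set on log2(CPM + 1) for genes that reached 1 CPM in 2 libraries or more. limma 3.58.1 (R 4.3.3; lmFit, contrasts.fit, eBayes with trend; 7 residual and 5.96 prior degrees of freedom) was fitted to all 11 libraries with 1 mean per group, and p-values were adjusted by Benjamini-Hochberg within each of the 6 comparisons. The procedure was tested on simulated data in which few genes changed, in a single group. Most genes differ in the real data, so that test does not cover such a background. For 8 ratios within libraries an exact two-sided permutation test over 92400 assignments was made in Python 3.11.15. The genes and the pathway and marker lists were chosen with earlier results of these data known. From each pathway list, the called genes with the largest rise and fall per comparison, at a mean of at least 10 CPM, were named. So was every kinase, STAT, inhibitor and co-receptor gene of the lists that passed the filter. The 3 genes closest in pattern to each of Nfia, Zbtb20, Stat3 and Osmr were named too. Other genes named (further ligands, Neurog2, Neurod1, Apoe, Aqp4, Mmd2 and marker genes) were added after their values were seen. Some genes of the lists are not reported here, and the counts leave them out. Of the neuron markers Map2 and of the oligodendrocyte markers Myrf were not matched. Exon lengths came from GENCODE M21 (GRCm38), matched by Ensembl identifier for all 10 genes and for 99.3% of 9372 genes averaging 10 CPM or more, and promoter windows from RefSeq (GRCm38.p6). Alternatives were a pseudocount of 0.1 or 5, no filter, a filter of 5 CPM, median-of-ratios scaling, quantile normalization, fits on the compared groups alone, no trend, the replicate number as a block, each library left out, and 3 libraries left out together.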

Additional observations from a re-analysis of the deposited data

Results flagged for a closer look

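Nfia changed in opposite directions against NSC in 2 media. It was higher in Astrocyte by a log2 fold change of 0.81 and lower in Oligodendrocyte by −0.36, and the difference between these, −1.16, was tested directly as Oligodendrocyte against Astrocyte (limma, adjusted p = 6.92e-08). The libraries of the 3 groups did not overlap. None of the other 9 genes was called in opposite directions against NSC in any pair of media.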

How the results depend on the processing

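Of 60 results (10 genes in 6 comparisons), 49 kept their direction and their side of the threshold under all 21 alternatives, and 0 called results changed sign. The number of genes called was 10 throughout in Astrocyte against NSC, 9 to 10 in Astrocyte against Neuron, 7 throughout in Neuron against NSC, 8 throughout in Oligodendrocyte against Astrocyte, 8 to 9 in Oligodendrocyte against NSC, and 6 to 9 in Oligodendrocyte against Neuron. Leaving out NSC replicate 3, Astrocyte replicate 3 and Neuron replicate 2 together, chosen after seeing the data, gave 10, 10, 7, 8, 9 and 9 in that order. Sign changes occurred only in results that were not called. In Neuron against NSC, quantile normalization gave 0.03 for Nfia (0.0326), Nfic (0.0340) and Stat3 (0.0353), leaving out Neuron replicate 2 gave 0.036 for Nfic and 0.0035 for Stat3, and leaving out the 3 libraries gave 0.023 for Nfic. Median-of-ratios scaling gave −0.14 for Stat3 in Oligodendrocyte against NSC and −0.023 against Neuron. Zbtb20 in Oligodendrocyte against Astrocyte was 0.10 without Astrocyte replicate 1 and 0.08 without replicate 2. Leaving out 1 library at a time, these results ranged from −0.13 to 0.036 for Nfic and −0.13 to 0.0035 for Stat3 in Neuron against NSC, and from −0.22 to 0.10 for Zbtb20. The 8 ratios differed across groups under every alternative run for them. The range of group means depended on the pseudocount for Osmr over Il6st (1.045 to 3.58), Socs3 over Stat3 (1.23 to 2.38) and Osmr over Lifr (4.82 to 7.61). The same held for the fold changes of the low genes: Osmr in Astrocyte against NSC was 3.73 with a pseudocount of 5 and 6.41 with 0.1.

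With the replicate number as a block, Lifr in Oligodendrocyte against Neuron passed the threshold (−0.28, adjusted p = 0.0231), and no other call changed. The numbers pair no samples by the labels, and the within-group deviations of 15 same-numbered pairs of libraries had correlations between −0.505 and 0.415, of which 6 were over 0.1. Depth does not limit these genes, apart from Osmr in NSC at about 0.74 CPM. With 2 or 3 libraries per group, spread is estimated mainly by pooling over groups and genes.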

Other observations

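The within-group deviations of Zbtb20 were shared by other genes with long transcripts, a pattern noticed after seeing the data. Over the 11 libraries the closest were Ptpn4 (Pearson r 0.995), Ino80d (0.991), Tnrc6b (0.991), Ubn2 (0.988) and Zdhhc21 (0.986), with 11.1, 13.8, 17.3, 14.7 and 8.8 kb of merged exons. The 100 genes with the highest r had a median of 10.5 kb, against 3.67 kb over all genes compared. These values are a description, and the libraries of a group share their mean by construction.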
